A study of Mus musculus with 10 samples.

Results

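Bone morphogenetic proteins (BMPs) are secreted ligands of the TGF-beta superfamily. They assemble type I and type II receptor kinases on the cell surface, and these phosphorylate SMAD1, SMAD5 and SMAD9, which enter the nucleus with SMAD4 and switch on target genes such as Id1. Several targets feed back on the pathway: SMAD6 and SMAD7 block signal relay, and BAMBI is a decoy receptor without kinase activity. In endothelium the pathway is best known through the receptor ALK1 (gene Acvrl1) and its co-receptor endoglin (Eng), which act in vessel stability and are mutated in hereditary haemorrhagic telangiectasia. The 10 genes described here were picked by symbol from the 23510 rows of the deposited gene table: the ligands Bmp2, Bmp4 and Bmp6, the receptors Bmpr2, Acvrl1 and Eng, the target Id1, and the feedback genes Bambi, Smad6 and Smad7. Each symbol matched a single row, and 10 of 10 passed the filter on low counts.

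The RNA came from lymphatic endothelial cells, the lining of lymphatic vessels, sorted by flow cytometry from melanomas. Fragments of MT-ret tumour, a mouse melanoma model, had been implanted on the flank of C57BL/6N mice. The 5 mice of the control group received IgG. The 5 mice of the treated group received an antibody (anti-Ang2) against angiopoietin-2, a ligand of the endothelial receptor Tie2. Both IgG and antibody were given into the peritoneum and tissue was taken 12 hours later. The comparison asked how the transcriptome of tumour lymphatic endothelium responds to short-term Ang2 blockade. The labels give neither the sex of the mice nor the antibody clone, and describe the 10 libraries as independent biological replicates.

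Library totals ran from 38090933 to 83850341 gene counts. Angpt2, which encodes the antibody's target, was higher after anti-Ang2 (log2 fold change 2.07 ± 0.22, SE) and Tek, which encodes Tie2, lower (-1.32 ± 0.16), with adjusted p of 0.00100 and 0.00116 by edgeR. The defining lymphatic markers Prox1, Lyve1, Pdpn and Flt4 were present in every library, and the summed level of 9 lymphatic markers ran from 17765 to 20959 CPM with IgG and from 14362 to 19628 CPM with anti-Ang2. Of these markers, 2 of 9 (Lyve1 and Reln) were higher in mean after anti-Ang2 (exact permutation p = 0.103, adjusted p = 0.186). The others were lower, among them Nrp2 (735 and 262 CPM in mean), Ccl21a (883 and 379) and Flt4 (3199 and 2338). CPM here are library-size-scaled counts with TMM factors. All 12 melanoma markers had a higher mean in the anti-Ang2 group, and their sum ran from 269 to 1862 CPM with IgG and from 1135 to 5580 CPM with anti-Ang2 (exact permutation, two-sided, p = 0.0476, adjusted p = 0.107 over 9 marker lists). Pan-endothelial markers summed to 4767 ± 507 and 3587 ± 274 CPM (SD, n = 5), with 1 of 5 markers higher after anti-Ang2 (exact permutation p = 0.00794, the smallest that 5 against 5 libraries can give, adjusted p = 0.0714). Macrophage markers summed to 51.5 to 207 CPM with IgG and 73.1 to 273 CPM with anti-Ang2, with 14 of 16 rows higher (exact permutation p = 0.135, adjusted p = 0.202). Pericyte and smooth muscle markers summed to 60.5 to 234 and 154 to 442 CPM, with Myh11 listed at 0 in 3 libraries and 4 of 8 markers higher after anti-Ang2 (exact permutation p = 0.0238, adjusted p = 0.107). Cspg4 had the largest mean of these in both groups' comparison (53.2 and 172 CPM), while Pdgfrb (8.15 and 4.69) and Rgs5 (7.83 and 3.29) were lower after anti-Ang2. Fibroblast markers summed to 190.1 to 920 and 205 to 733 CPM, with Dcn and Lum higher in mean after anti-Ang2 and the other 6 of 8, the collagen genes included, lower. Blood endothelial markers summed to 4608 ± 864 and 3090 ± 992 CPM (SD, n = 5; exact permutation p = 0.0397, adjusted p = 0.107), with 5 of 7 higher and Plvap, which made up most of the sum, lower. T and B cell markers stayed at or below 8.24 CPM in sum. Anti-Ang2 4 and anti-Ang2 5 had the lowest quality weights (0.606 and 0.417, the others 0.911 to 1.43), so values without them are given for the genes described in full. Fits without anti-Ang2 1, 2 and 3 have anti-Ang2 4 and 5 as their only treated libraries. Fewer cells of a type and less RNA per cell cannot be told apart in these sorted pools.

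Promoter windows from RefSeq (GRCm38.p6) were at hand for 5 of the 10 genes, as the 250 bases before the annotated start. Those of Bmp6 and Bmpr2 lay wholly within annotated exons and are not shown. The windows of Eng and Smad6 are given because Eng was the most abundant of the 10 genes and Smad6 is the classical feedback target; both lay outside their genes' own exons. Capitals mark AGGAAG on either strand, a short core found in binding sites of ETS factors. The Eng window spans chr2:32646345-32646594 on the plus strand and the Smad6 window chr9:64022060-64022309 on the minus strand, each printed 5′ to 3′ on the gene's strand.
Eng: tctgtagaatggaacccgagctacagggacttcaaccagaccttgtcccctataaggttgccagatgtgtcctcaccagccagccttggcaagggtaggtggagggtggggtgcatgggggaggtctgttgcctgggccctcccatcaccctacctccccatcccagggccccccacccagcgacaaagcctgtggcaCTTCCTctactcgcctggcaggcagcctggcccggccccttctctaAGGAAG
Smad6: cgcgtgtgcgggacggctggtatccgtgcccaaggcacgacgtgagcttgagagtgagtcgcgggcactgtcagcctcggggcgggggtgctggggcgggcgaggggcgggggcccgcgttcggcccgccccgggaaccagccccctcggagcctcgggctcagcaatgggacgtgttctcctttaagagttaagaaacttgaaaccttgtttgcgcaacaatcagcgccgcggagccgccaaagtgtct
AGGAAG was found at 2 places in the Eng window and at 0 in the Smad6 window; 29.5% of all 32851 promoter windows of this length hold it. GGCGCC and GCCGNCGC, GC-rich sequences of BMP-responsive elements, were at 0 places in both windows, against 9.59% and 6.89% of all windows. The forkhead sequence TGTTTAC was also at 0 places in both, against 3.17%. GC made up 62.4% of the Eng window and 66.8% of the Smad6 window, where the median over all windows was 52.4%. These matches describe letters only; both strands were searched, and the matches did not overlap each other.

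The 10 genes differed widely in level. On the deposited FPKM scale, which divides by gene length, the IgG means ran from 234 ± 22.3 FPKM for Eng to 1.22 ± 0.59 FPKM for Bmp2 (SD, n = 5). Id1 followed Eng at 98.9 ± 16.9 FPKM, then Acvrl1 at 41.8 ± 3.97, Bmp6 at 39.5 ± 19.3, Bambi at 18.5 ± 4.55 and Bmp4 at 8.56 ± 4.56 FPKM. The lowest were Bmpr2 (2.77 ± 0.49), Smad6 (2.70 ± 1.17), Smad7 (1.76 ± 0.45) and Bmp2. In IgG, Eng stood above every Id1 value and Id1 above every Acvrl1 value; each other pair of neighbours in this order overlapped in range. After anti-Ang2 the order of the leading genes was Eng (305 ± 31.3 FPKM), Bmp6 (84.6 ± 12.8), Id1 (61.5 ± 20.2) and Acvrl1 (29.4 ± 6.47). There Eng stood above every Bmp6 value and Acvrl1 above every Bambi value, and the other neighbours overlapped. The place of Bmp6 next to Acvrl1 in IgG and above Id1 after anti-Ang2 was the main difference between the orders.

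**Figure D1:**
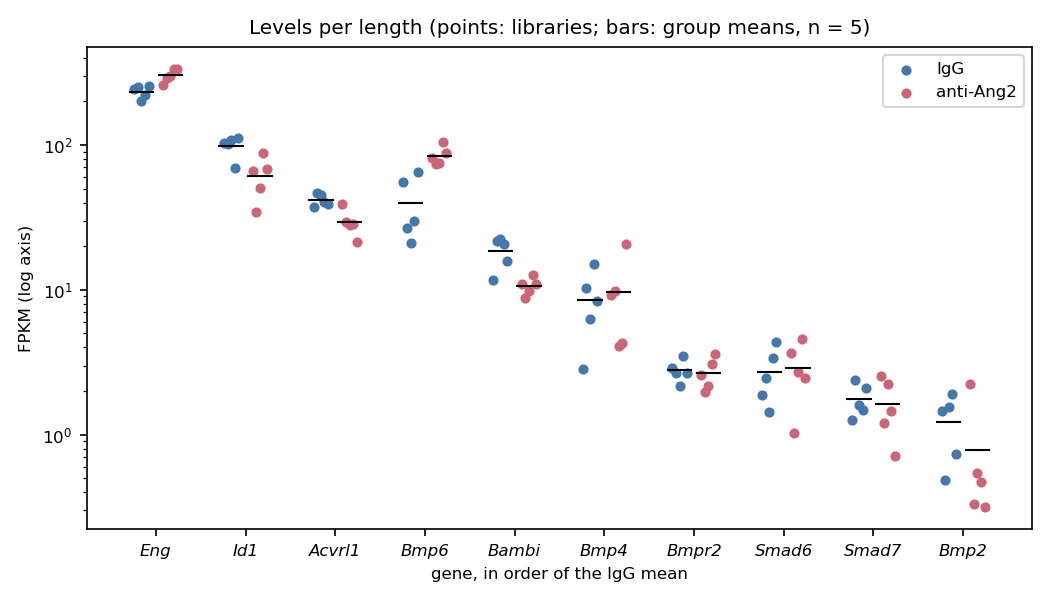
FPKM (log axis) of the 10 genes in order of their IgG mean; points are libraries (blue IgG, red anti-Ang2) and black bars the means of 5 libraries. Eng lies highest in both groups (234 and 305 FPKM) and Bmp2 lowest (1.22 and 0.78 FPKM).

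In the edgeR test across 16240 genes, 1 of the 10 genes passed, the decoy receptor Bambi, which fell; 0 rose. Over all tested genes 4.13% passed (1.34% higher and 2.8% lower), so a single call among 10 genes lies near that share. At an unadjusted p under 0.05 there were 5 of the 10 (Bmp6 and Eng higher, Acvrl1, Bambi and Id1 lower), against 18.2% of all genes. The same 5 genes had an adjusted p under 0.05 by DESeq2, where 9.09% of genes passed (4.25% higher, 4.84% lower), and 4 of them, all but Eng, by limma voom with quality weights, where 8.93% did (4.13% higher, 4.8% lower). The authors' deposited table has adjusted p under 0.05 for these 5 genes, from 0.000247 for Bambi to 0.0168 for Acvrl1. These values come from DESeq2-style output on the same counts and nearly equal those by DESeq2 here, so they are no separate support. The median log2 fold change of the 10 genes was -0.11 and that of all tested genes 0.01. The 4 genes that differed between the tools had adjusted p of 0.0599 to 0.0827 by edgeR, so the tools part close to the threshold.

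**Figure D2:**
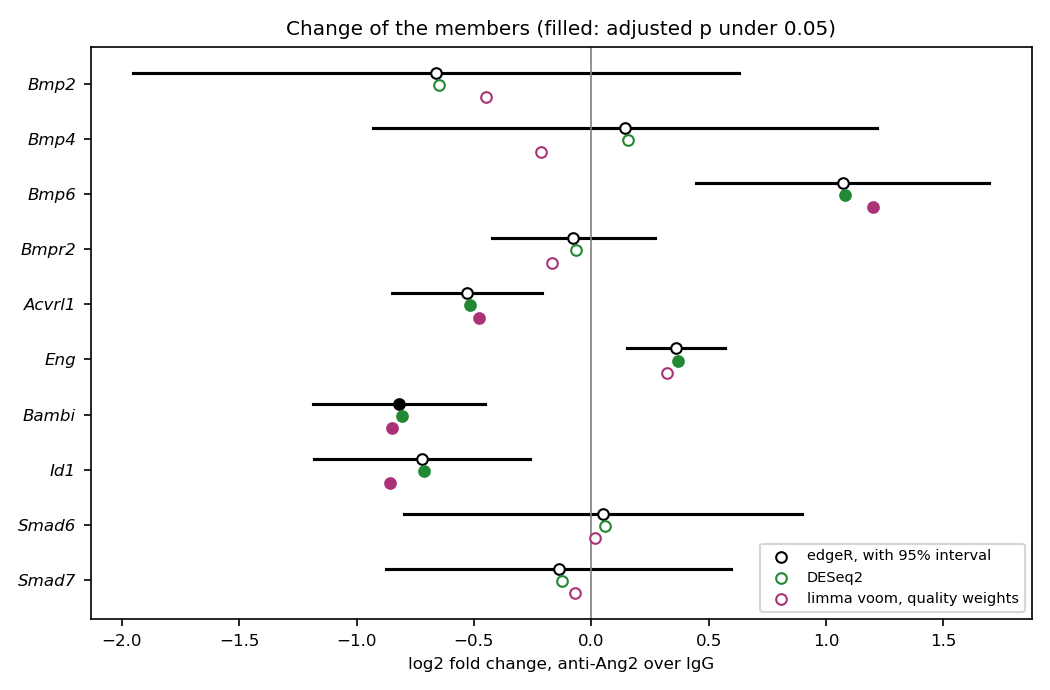
Log2 fold change of anti-Ang2 over IgG for each gene (x axis) by edgeR with its 95% interval (black), DESeq2 (green) and limma voom (purple); filled points have an adjusted p under 0.05. Bambi is filled by all 3 tools, and Bmp6, Acvrl1 and Id1 by DESeq2 and limma voom.

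**Figure D3:**
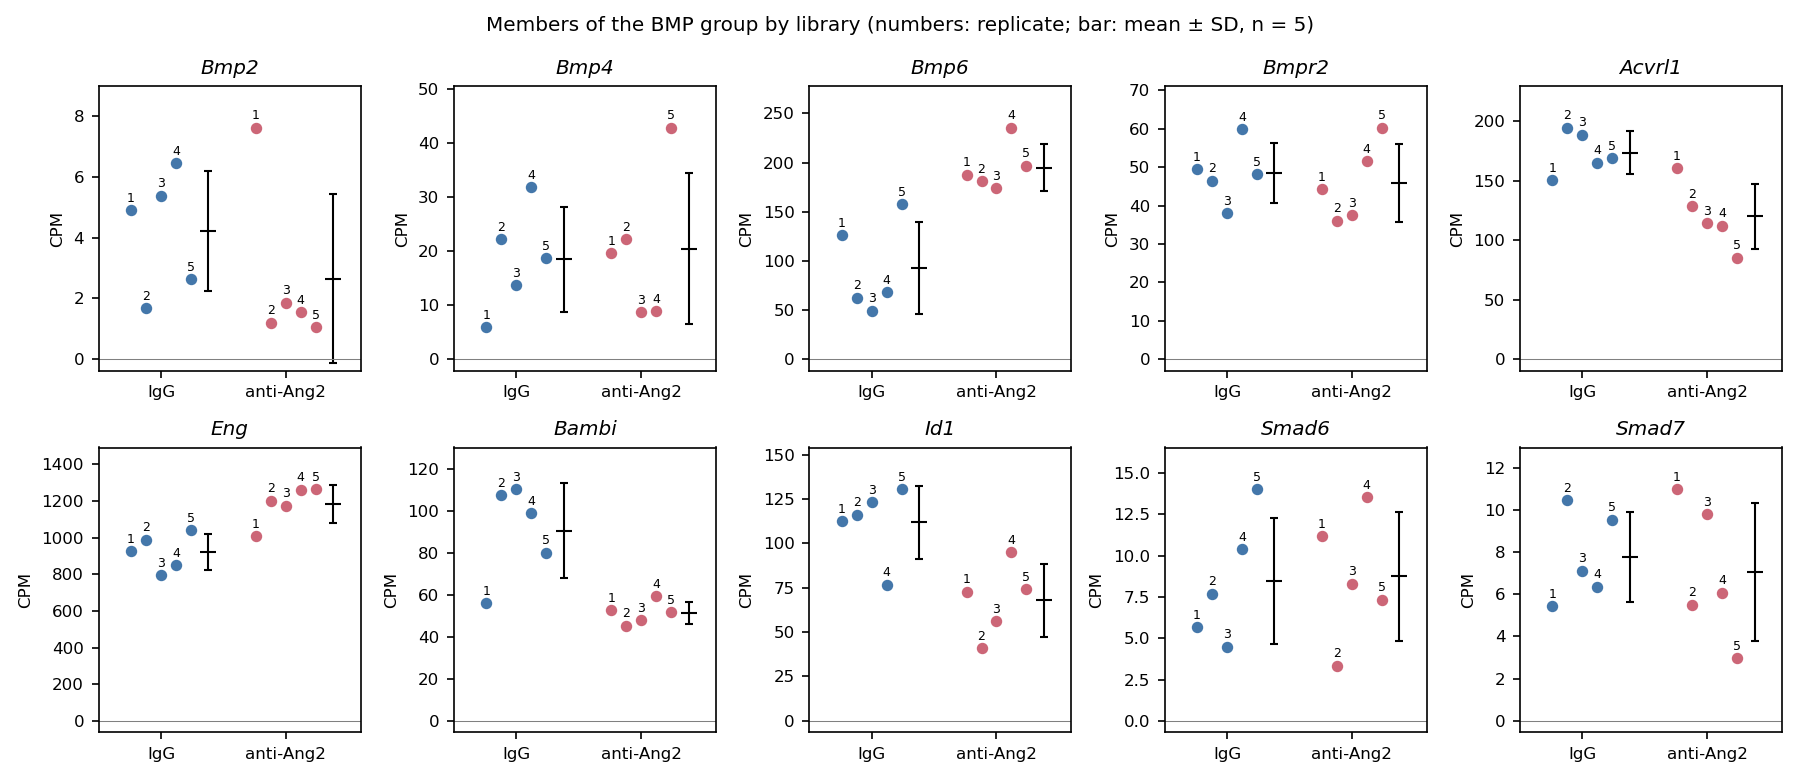
CPM of each gene by library (numbers give the replicate; the bar is the mean ± SD of 5). Bmp6 is the single gene whose groups do not overlap in CPM (157.5 CPM at most in IgG, 174 at least in anti-Ang2), and in Bambi, Acvrl1 and Id1 4 of 5 anti-Ang2 libraries lie below every IgG library.

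Among the ligands, Bmp6 had the largest change. BMP6 is the BMP that endothelial cells of the liver secrete to regulate hepcidin and iron, and it signals mainly through ALK2 and ALK3. Bmp6 (ENSMUSG00000039004.5; chromosome 13, 38345107 to 38500302 in GENCODE M21 for mm10, up to 7 exons, plus strand) measured 126, 62.8, 49.4, 68.1 and 157.5 CPM in IgG 1 to 5, and 188, 181, 174, 235.5 and 197 CPM in anti-Ang2 1 to 5. All 5 anti-Ang2 libraries lay above every IgG library, and IgG 1 and IgG 5 stood high among the IgG libraries. Of the 10 genes Bmp6 was the single one without overlap in CPM, against 6.1% of all tested genes (2.34% entirely higher, 3.76% entirely lower). The means were 92.8 ± 46.7 and 195 ± 24.2 CPM, 2.10-fold apart, with a log2 fold change of 1.07 ± 0.28 (95% interval 0.45 to 1.69). This missed the threshold by edgeR (adjusted p = 0.0614) and passed by DESeq2 (0.00319) and limma voom (0.0235). Without IgG 5 it passed by edgeR as well (1.35 ± 0.24, adjusted p = 0.0175). The change was as large with the melanoma sum (1.38 ± 0.41) or the macrophage sum (1.01 ± 0.34) added to the model and without anti-Ang2 1, 2 and 3 (1.21 ± 0.41), with wider SE and adjusted p of 0.180 to 0.234 by edgeR. Without anti-Ang2 4 and 5 it was 0.95 ± 0.34 (adjusted p = 0.143 by edgeR). Anti-Ang2 4 and 5, whose melanoma sums (1715 and 1135 CPM) lay within the IgG range, had the highest Bmp6 values. These libraries also had the lowest quality weights (0.606 and 0.417). The part of melanoma RNA in the Bmp6 value was not tested beyond the fits above. An exon of Txndc5 overlaps Bmp6 on the other strand, which the library kit does not separate; Txndc5 was at 194 ± 31.3 and 239 ± 39.3 CPM (0.30 on the log2 scale, adjusted p = 0.269 by edgeR).

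Bmp2 and Bmp4, the closely related ligands that bind ALK3 and ALK6, were low and variable. Bmp2 (chromosome 2, 133552159 to 133562885) measured 4.89, 1.69, 5.37, 6.44 and 2.63 CPM in IgG 1 to 5, and 7.61, 1.21, 1.86, 1.54 and 1.05 CPM in anti-Ang2 1 to 5. Anti-Ang2 1 was the highest of all 10 libraries and the other 4 anti-Ang2 libraries lay at or near the bottom, 3 of them below every IgG library. The log2 fold change was -0.66 ± 0.59 (95% interval -1.95 to 0.63, adjusted p = 0.633 by edgeR), and without anti-Ang2 1 it was -1.57 ± 0.43 (adjusted p = 0.0891). That library also had the highest melanoma marker sum (5580 CPM). The Bmp2 change was -1.42 ± 0.95 with the melanoma sum in the model, -1.77 ± 0.64 with the macrophage sum, -1.70 ± 0.59 without anti-Ang2 1, 2 and 3, and -0.25 ± 0.64 without anti-Ang2 4 and 5, all with adjusted p of at least 0.208 by edgeR. The size of the Bmp2 difference thus depended on which libraries entered, while its sign did not. Bmp4 (chromosome 14, 46383520 to 46390669) ranged from 5.98 to 31.9 CPM with IgG and from 8.78 to 42.9 CPM with anti-Ang2, the highest being anti-Ang2 5. Its log2 fold change was 0.14 (interval -0.93 to 1.22, adjusted p = 0.924 by edgeR), and -0.32 without anti-Ang2 5; with the macrophage sum in the model it was 0.89 ± 0.42 (adjusted p = 0.422 by edgeR). Bmp2 and Bmp4 together came to 9.79 ± 4.66 FPKM with IgG and 10.4 ± 6.67 FPKM with anti-Ang2. Of the summed FPKM of the 3 ligands, Bmp6 made up 77.6 ± 12.2% with IgG and 89.2 ± 5.99% with anti-Ang2, and the groups overlapped.

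Among the receptors, the differences of the type I receptor and its co-receptor had opposite signs, and neither passed by edgeR. Acvrl1 (ENSMUSG00000000530.16; chromosome 15, 101128522 to 101145336, plus strand, up to 12 exons) encodes ALK1, the endothelial type I receptor for BMP9 and BMP10. It measured 150.4, 195, 189, 165 and 169 CPM in IgG 1 to 5, and 160.4, 129, 114, 112 and 85.5 CPM in anti-Ang2 1 to 5. Anti-Ang2 1 lay within the IgG range and the other 4 lay below it. The log2 fold change was -0.53 ± 0.15 (95% interval -0.85 to -0.21), which missed the threshold by edgeR (adjusted p = 0.0699) and passed by DESeq2 (0.0169) and limma voom (0.0413). By edgeR it passed without anti-Ang2 1 (-0.66 ± 0.13, adjusted p = 0.0216). It also passed without anti-Ang2 1, 2 and 3 (-0.82 ± 0.15, 0.0437), a fit with anti-Ang2 4 and 5 as the only treated libraries. Without anti-Ang2 4 and 5 the change was -0.38 ± 0.13 (adjusted p = 0.115). Adding the melanoma sum to the model gave -0.78 ± 0.19 (adjusted p = 0.102 by edgeR). The pan-endothelial marker sum was lower as well, 4767 against 3587 CPM, but its markers differed. Kdr (1350 and 777 CPM in mean), Tie1 (1519 and 1067) and Pecam1 (1402 and 1241) were lower. Cdh5 was level (323 and 322) and Emcn slightly higher (175 and 180). The part of endothelial content in the Acvrl1 value was not tested.

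Eng (ENSMUSG00000026814.16; chromosome 2, 32646595 to 32682669, plus strand, up to 15 exons) encodes endoglin, a transmembrane glycoprotein that binds BMP9 and BMP10 and presents them to ALK1. It measured 926, 989.6, 797, 851 and 1042 CPM in IgG 1 to 5, and 1008, 1203, 1175, 1262 and 1265 CPM in anti-Ang2 1 to 5. Anti-Ang2 1 lay below IgG 5 and the other 4 lay above every IgG library. On the deposited FPKM scale the groups did not overlap (at most 255 FPKM with IgG, at least 261 with anti-Ang2). The share of all tested genes without overlap was computed in CPM only, where it was 6.1%. The difference was small in size, with a log2 fold change of 0.36 ± 0.10 (1.28-fold, 95% interval 1.11 to 1.48). It missed the threshold by edgeR (adjusted p = 0.0599) and by limma voom (0.0540) and passed by DESeq2 (0.00397). Without anti-Ang2 1 it passed by edgeR (0.41 ± 0.09, adjusted p = 0.0401). It was 0.40 ± 0.13 once the melanoma sum was in the model, 0.43 ± 0.11 with the macrophage sum and 0.45 ± 0.11 without anti-Ang2 1, 2 and 3 (adjusted p 0.0980 to 0.227 by edgeR), and 0.28 ± 0.10 without anti-Ang2 4 and 5 (0.148). Fpgs, which overlaps Eng on the other strand, had at most 2346 counts in a library, where Eng had at least 32809.

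Bmpr2 (chromosome 1, 59763400 to 59879014), the type II receptor that pairs with ALK1 and the other BMP type I receptors, gave the narrowest interval among the genes with little difference in mean. It ranged from 38.1 to 60.0 CPM with IgG and from 36.1 to 60.3 CPM with anti-Ang2. The log2 fold change was -0.08 with a 95% interval of -0.42 to 0.27 (adjusted p = 0.867 by edgeR), so that a difference beyond 1.34-fold lower or 1.21-fold higher lay outside the interval. It was -0.31 ± 0.14 without anti-Ang2 4 and 5 (adjusted p = 0.244 by edgeR) and 0.20 ± 0.16 without anti-Ang2 1, 2 and 3 (0.602).

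The ratio of Eng to Acvrl1 in FPKM, chosen after the values were seen and therefore given with no test, was 6.48, 5.36, 4.45, 5.43 and 6.49 in IgG 1 to 5. In anti-Ang2 1 to 5 it was 6.62, 9.85, 10.8, 11.8 and 15.6. The groups did not overlap, anti-Ang2 1 lying just above the IgG range. The ratio of Bmp6 to Bambi was also chosen after the values were seen and is given with no test. It was 4.71, 1.22, 0.94, 1.44 and 4.11 in IgG 1 to 5, and 7.45, 8.36, 7.60, 8.28 and 7.95 in anti-Ang2 1 to 5. The anti-Ang2 libraries were alike in this ratio while IgG 1 and IgG 5 stood above the other IgG libraries. Each ratio sets a gene with a higher mean after anti-Ang2 over a gene with a lower one. Its separation of the groups is therefore no separate support for a change in either gene. The share of all gene pairs that separate in this way was not computed.

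**Figure D4:**
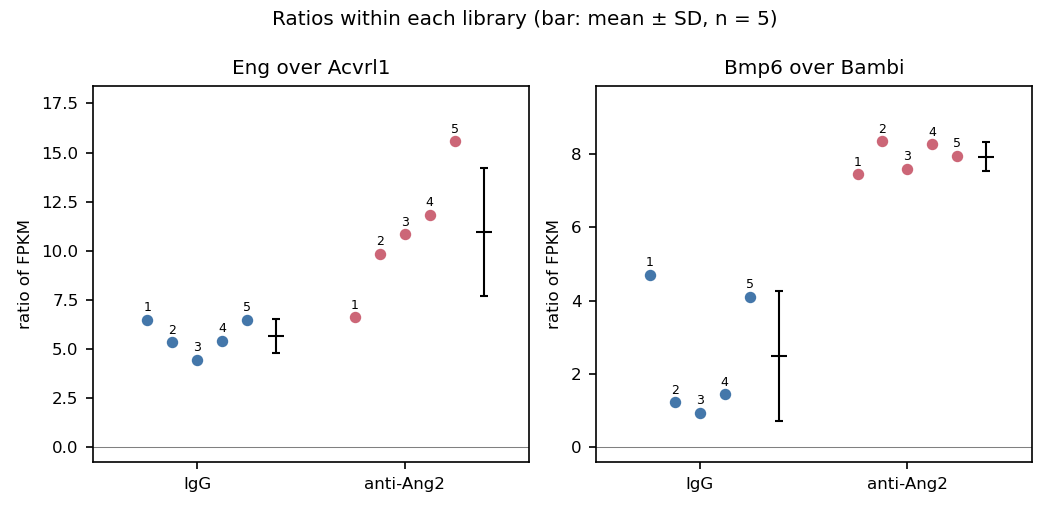
Ratio of FPKM within each library for Eng over Acvrl1 and Bmp6 over Bambi, both chosen after the values were seen (numbers give the replicate; the bar is the mean ± SD of 5). The means are 5.64 in IgG and 10.9 in anti-Ang2 for the first ratio and 2.48 and 7.93 for the second.

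Id1, an inhibitor of basic helix-loop-helix factors, is the most direct transcriptional readout of BMP-activated SMADs in endothelium. Id1 (ENSMUSG00000042745.9; chromosome 2, 152736251 to 152737410, plus strand, 2 exons) measured 113, 116, 123, 76.8 and 131 CPM in IgG 1 to 5, and 72.8, 41.0, 56.0, 95.2 and 74.2 CPM in anti-Ang2 1 to 5. IgG 4 was the lowest control and anti-Ang2 4 the highest treated library, so the groups overlapped through these libraries; the other 4 anti-Ang2 libraries lay below every IgG library. The log2 fold change was -0.72 ± 0.21 (95% interval -1.18 to -0.26). It missed the threshold by edgeR (adjusted p = 0.0827) and passed by DESeq2 (0.0166) and limma voom (0.0225). By edgeR it passed without anti-Ang2 4 (-0.87 ± 0.20, adjusted p = 0.0398) and without anti-Ang2 4 and 5 (-0.99 ± 0.22, 0.0279). With the melanoma sum as a covariate the change was smaller (-0.38 ± 0.25, adjusted p = 0.576 by edgeR), as it was without anti-Ang2 1, 2 and 3 (-0.41 ± 0.21, 0.368), whereas with the macrophage sum it was -0.71 ± 0.26 (0.284). The part of melanoma RNA in the Id1 value was not tested beyond these fits; of the 5 genes with an unadjusted p under 0.05, Id1 had the largest drop in size under both.

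None of the relatives of Id1 passed the test, and their differences had both signs. Id3 was at 560 ± 106 CPM with IgG and 455 ± 50.5 CPM with anti-Ang2 (log2 fold change -0.30 ± 0.13, adjusted p = 0.252 by edgeR). Id2 was at 58.0 ± 25.6 and 98.6 ± 35.5 CPM (0.77 ± 0.31, adjusted p = 0.208 by edgeR). Id4 was at 6.60 ± 4.01 and 19.5 ± 17.2 CPM (1.56 ± 0.66, adjusted p = 0.233 by edgeR). Its values were highest in anti-Ang2 1 to 3 (28.5, 12.7 and 45.2 CPM, all other libraries at most 10.4), the libraries with the highest melanoma sums, and the change was -0.44 ± 0.56 once that sum was in the model.

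Among the feedback genes, Bambi encodes a transmembrane pseudoreceptor that resembles a type I BMP receptor outside the cell and lacks the kinase inside it. Bambi (ENSMUSG00000024232.1), a gene of 3 exons on chromosome 18, measured 56.1, 107, 110.3, 99.0 and 80.1 CPM in IgG 1 to 5, and 52.7, 45.3, 47.8, 59.5 and 51.7 CPM in anti-Ang2 1 to 5. The anti-Ang2 libraries lay close together and 4 of them lay below every IgG library; the groups overlapped through IgG 1 alone, which lay below anti-Ang2 4. The mean fell from 90.6 ± 22.6 to 51.4 ± 5.41 CPM (SD, n = 5), a log2 fold change of -0.82 ± 0.17 (SE; 95% interval -1.18 to -0.45; adjusted p = 0.0194 by edgeR). The call was lost without IgG 2 (-0.75, adjusted p = 0.0556 by edgeR), IgG 3 (-0.74, 0.0601), anti-Ang2 2 (-0.78, 0.0517) or anti-Ang2 3 (-0.79, 0.0566), and without IgG 1 the change was -0.95 (0.00153). It was also lost with the melanoma sum (-0.86 ± 0.23, 0.134) or the macrophage sum (-0.63 ± 0.20, 0.203) added to the model, and without anti-Ang2 1, 2 and 3 (-0.71 ± 0.25, 0.214); the melanoma sum left the size of the change as it was and widened its SE. Without anti-Ang2 4 and 5 it was -0.91 ± 0.20 (0.0323 by edgeR). The annotated pseudogene Bambi-ps1, which may share reads with Bambi, had at most 22 counts in a library, where Bambi had at least 2027.

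The inhibitory SMADs did not pass the test. Smad6 (chromosome 9, 63953076 to 64022059, minus strand), which competes with the receptor-activated SMADs of the BMP branch, ranged from 4.50 to 14.0 CPM with IgG and from 3.35 to 13.6 CPM with anti-Ang2. Its log2 fold change was 0.05 with a 95% interval of -0.80 to 0.90 (adjusted p = 0.966 by edgeR). Smad7, on chromosome 18, which also blocks the TGF-beta branch, ranged from 5.43 to 10.5 CPM with IgG and from 2.99 to 11.0 CPM with anti-Ang2 (-0.14, interval -0.87 to 0.60, adjusted p = 0.886 by edgeR). The Smad7 change was -0.84 ± 0.45 with the melanoma sum in the model, -0.79 ± 0.38 without anti-Ang2 1, 2 and 3 and 0.16 ± 0.29 without anti-Ang2 4 and 5 (adjusted p at least 0.355 by edgeR). Both groups overlapped widely in either gene, and changes of up to about the interval's ends in either direction were not resolved. Their counts were low, from 161 to 711 per library for Smad6 and from 117 to 867 for Smad7, but the spread was far above counting error: Smad6 varied by 45.3% (CV) within IgG, where counting alone gives 4.95%.

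Between mice of one treatment, Id1 was compared with the other 9 genes by correlating log2 CPM centred on the group means over the 10 libraries. Pearson's r ran from -0.27 (Bmp4) to 0.51 (Smad6). For Smad6, Spearman's rho was 0.50 (two-sided exact permutation within groups, p = 0.181 for r and 0.172 for rho, adjusted p = 0.855 and 0.729 over the 9 pairs), and r was 0.47 without the 2 libraries farthest from the median of Id1. For Bambi r was 0.21 and rho 0.34 (exact permutation p = 0.503 and 0.324, adjusted p = 0.855 and 0.729; r = 0.36 without the 2 farthest). Of the 9 pairs, 0 passed; the smallest unadjusted exact p for r was that of Smad6. As a description with no test, the gene of at least 1 CPM on average, among 13257, whose group-centred pattern over the 10 libraries was most like that of Bmp6 was Thbs1 (r = 0.95), which encodes thrombospondin-1 and was itself higher after anti-Ang2 (log2 fold change 1.14, adjusted p = 0.0121 by edgeR). For Bambi it was Tmem198b (r = 0.95), for Id1 Tpgs2 (0.95), for Acvrl1 Prmt2 (0.94) and for Eng Fam32a (0.91). For Bmp2 it was Slc25a11 (0.87), for Bmp4 Tgfa (0.95), for Bmpr2 Upf2 (0.97), for Smad6 Msh5 (0.95) and for Smad7 Aldh3b1 (0.97). Each r was picked as the highest among 13257 genes over 10 libraries, so its size alone does not show a link between the genes.

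Of 74 further gene symbols of the pathway, 64 were in the table and 49 were tested, of which 1 rose and 6 fell by edgeR, against 1.34% and 2.8% of all genes. Their median log2 fold change was 0.01, as that of all tested genes. Of 2 ligands, 7 receptors and co-receptors and 3 signal-transducing SMADs tested, 0 passed by edgeR, near the share over all genes (2 of the 7 receptors and co-receptors, Bmpr1a and Neo1, had an unadjusted p under 0.05 and passed by DESeq2 and by limma voom). The ALK1 ligand genes Gdf2 and Bmp10 gave no test, Gdf2 failing the filter and Bmp10 not analysed here. Smad1, which encodes a relay SMAD, was at 844 ± 102 and 984 ± 107 CPM (0.22 ± 0.10, adjusted p = 0.290 by edgeR). The type I receptor gene Bmpr1a was at 3.03 ± 2.01 and 8.83 ± 4.73 CPM (1.54 ± 0.51, adjusted p = 0.126 by edgeR), and its change was 0.11 ± 0.29 once the melanoma sum was in the model. Neo1, which encodes the co-receptor neogenin, was at 209 ± 90.9 and 419.9 ± 76.4 CPM (1.01 ± 0.29, adjusted p = 0.0801 by edgeR).

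Among 11 tested extracellular antagonists and modulators, 3 fell and 0 rose by edgeR, against 2.8% and 1.34% of all genes. By DESeq2 and by limma voom 3 fell and 1, Crim1, rose. Of the 3 that fell, 2 encode the proteases that cleave the BMP antagonist chordin. Tll1 (tolloid-like 1) measured 96.2, 213, 243, 137 and 195 CPM in IgG 1 to 5, and 46.7, 46.4, 25.1, 27.6 and 32.9 CPM in anti-Ang2 1 to 5. The groups lay far apart, and the log2 fold change was -2.31 ± 0.27 (adjusted p = 0.00111 by edgeR), past the threshold under 20 of 20 alternatives. Bmp1, which despite its name encodes the related protease and not a BMP, fell from 359 ± 47.8 to 242 ± 11.4 CPM (-0.57 ± 0.09, adjusted p = 0.00597 by edgeR), without overlap. Fstl1, a secreted follistatin-like glycoprotein, fell from 924 ± 158 to 536 ± 81.0 CPM (-0.79 ± 0.14, adjusted p = 0.00990 by edgeR), also without overlap. Chordin itself (Chrd) was near 0, at 0.41 ± 0.56 and 0.99 ± 0.88 CPM. Crim1, a transmembrane BMP-binding protein, ranged from 319 to 606 CPM with IgG and from 593 to 744 CPM with anti-Ang2. Its log2 fold change was 0.65 ± 0.16 (adjusted p = 0.0503 by edgeR, and 0.00792 without IgG 5). It passed by DESeq2 (adjusted p = 0.00361) and limma voom (0.0358).

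Among 17 intracellular regulators, 2 fell and 0 rose by edgeR, against 2.8% and 1.34% of all genes. Zfp423, a zinc-finger partner of the BMP-activated SMADs, fell from 163 ± 39.8 to 59.3 ± 10.1 CPM (-1.46 ± 0.18, adjusted p = 0.00145 by edgeR), past the threshold under 20 of 20 alternatives. Tob1, an antiproliferative protein that restrains BMP SMADs, fell from 137 ± 20.1 to 92.9 ± 10.8 CPM (-0.56 ± 0.12, adjusted p = 0.0212 by edgeR). Its call was lost without IgG 3 (0.0658), IgG 5 (0.0541) or anti-Ang2 3 (0.0546). Bmp2k, Ski and Xiap had an unadjusted p under 0.05 and log2 fold changes of -0.34, -0.33 and -0.24 (adjusted p 0.123 to 0.272 by edgeR). Without anti-Ang2 4 and 5, Ski (-0.48, 0.0302) and Xiap (-0.40, 0.0437) passed by edgeR. Ski also passed by limma voom with all libraries (-0.38, adjusted p = 0.0447).

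Among 9 target genes other than Id1, Runx2 rose and Gata2 fell by edgeR, against 1.34% and 2.8% of all genes. Runx2, the transcription factor known from bone formation, measured 0.88, 2.04, 1.24, 1.49 and 1.59 CPM in IgG 1 to 5, and 3.96, 4.70, 6.66, 4.46 and 4.01 CPM in anti-Ang2 1 to 5, a low level at which the groups nevertheless did not overlap (1.71 ± 0.29, adjusted p = 0.00698 by edgeR). Gata2, a transcription factor of lymphatic valve development, fell from 182 ± 25.7 to 137 ± 8.47 CPM (-0.41 ± 0.10, adjusted p = 0.0401 by edgeR). Its call was lost without IgG 2 (0.0769), IgG 3 (0.110), IgG 5 (0.0752), anti-Ang2 1 (0.0681), anti-Ang2 2 (0.0886), anti-Ang2 3 (0.103) or anti-Ang2 4 (0.0774), without anti-Ang2 4 and 5 (0.0628), and with no filter on low counts (0.0529); it passed under 7 of 20 alternatives. Tmem100, a target of ALK1 in endothelium, was at 105 ± 16.4 and 80.6 ± 20.9 CPM (-0.38 ± 0.17, adjusted p = 0.253 by edgeR), and -0.54 ± 0.13 without anti-Ang2 5 (0.0435). With the melanoma sum as a covariate, of the 7 called genes Tll1 and Zfp423 passed, Bmp1 (-0.54, 0.107), Runx2 (1.34, 0.148), Fstl1 (-0.86, 0.0776), Tob1 (-0.35, 0.333) and Gata2 (-0.29, 0.388) did not; of these, Tob1 alone changed in size by over 1.5 times. With the macrophage sum in the model, Bmp1 (-0.46, 0.0589), Tob1 (-0.61, 0.0799) and Gata2 (-0.35, 0.237) missed the threshold by edgeR.

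**Figure D5:**
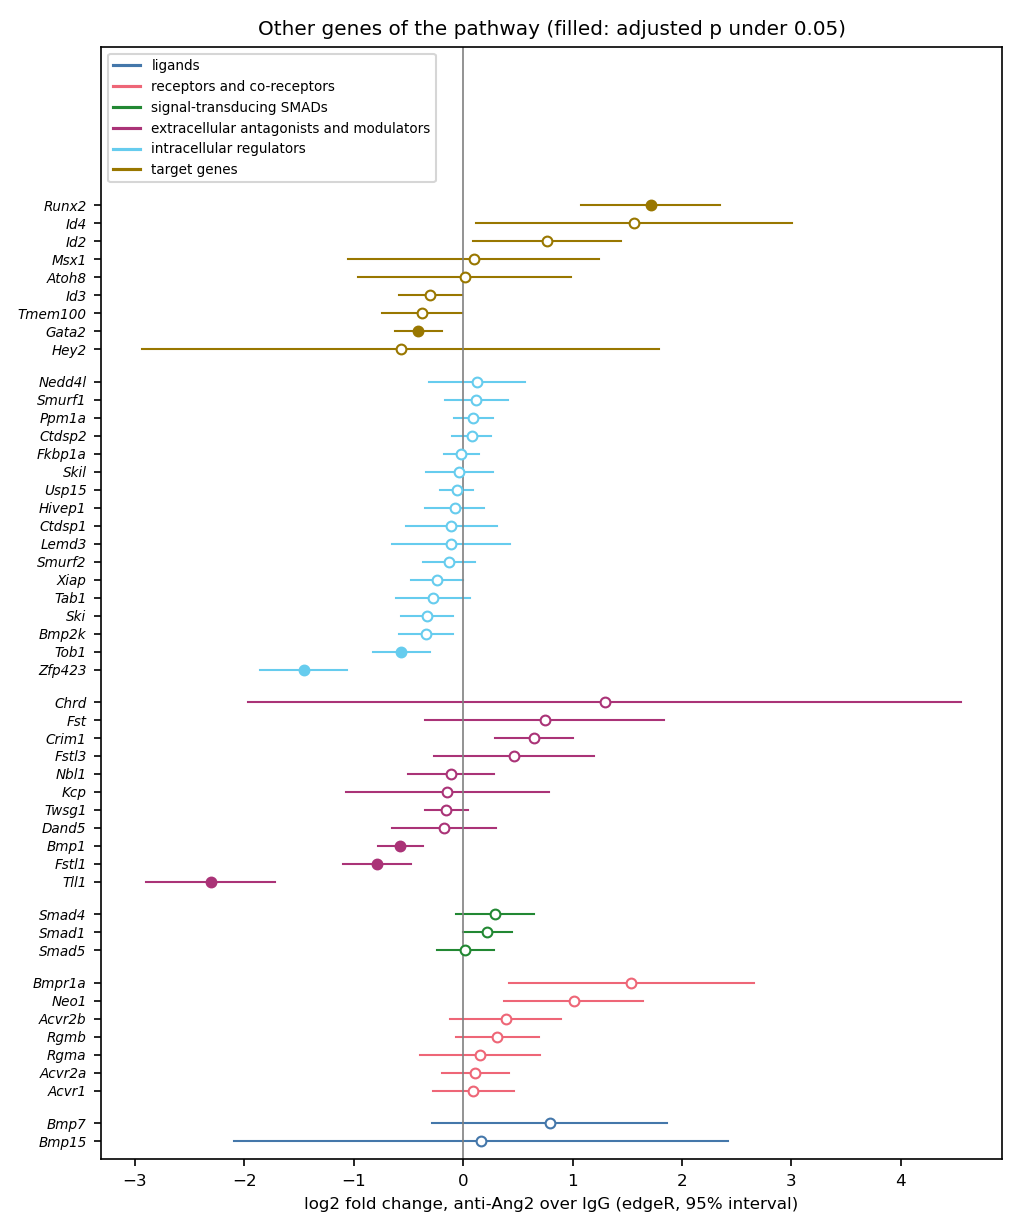
Log2 fold change of anti-Ang2 over IgG (x axis, edgeR, bars 95% intervals) for the 49 other tested pathway genes, coloured by class; filled points have an adjusted p under 0.05. Tll1 (-2.31) and Zfp423 (-1.46) lie lowest among the filled points and Runx2 (1.71) highest, and no filled point is a ligand, receptor or SMAD.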

How the data were processed

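RNA (0.5 ng per library) was amplified with a SMART-Seq v4 kit, per the labels' protocols; such libraries do not mark strand. STAR, featureCounts and DESeq2 with mm10 are named in the submitters' processing notes, without versions. The annotation release and the strand option are not given in the sources used here. The authors deposited raw gene counts and FPKM, and a column headed TPM, used here for nothing and treated as a score because it sums to more than TPM can. The authors also deposited a mean signal per gene (baseMean, not used) and log2 fold changes with p-values, per the file headers from DESeq2-style output. FPKM served for levels between genes and ratios; counts per FPKM kept 1 ratio between libraries for each of 11379 well-counted genes. Of the authors' deposited comparison only adjusted p-values were used. Columns of per-sample values that matched no sample numbered 0.

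Counts were tested with edgeR 4.0.16 in R 4.3.3 (quasi-likelihood F test, TMM, filterByExpr with minimum count 10 and minimum total 15, treatment as the factor, Benjamini-Hochberg over 16240 genes, threshold 0.05). SE and 95% intervals come from the same fit. Log2 CPM used a prior count of 2. DESeq2 1.42.0 and limma 3.58.1 (voom) were alternatives; the others were other scalings, no filter, each library left out, marker sums as covariates, anti-Ang2 4 and 5 or 1, 2 and 3 left out together, and a replicate block. The steps were tested on simulated data. Sums and permutation tests used scipy 1.17.1 and numpy 2.4.6 under Python 3.11.15, and plots matplotlib 3.10.9. Each library is labelled a separate biological replicate; reads carry no molecular identifiers, so counting error is a lower limit. Coordinates are GENCODE M21 (mm10); for Bmp4, Bmp6 and Bambi the ID version differed. Named were the 10 genes, pathway genes past the threshold, the 10 next by p, and the gene nearest in pattern to each of the 10; Smad1, Chrd, Fst, Twsg1 and the checks Angpt2 and Tek fall outside this rule, the first 4 chosen after their values were seen. Genes and lists were chosen with earlier results of these data known.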

Additional observations from a re-analysis of the deposited data

Results flagged for a closer look

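In 3 of 58 groups of 5 libraries (29 named genes in each treatment), a single library stood apart from the other 4 by more than Dixon's 95% critical value of 0.71; chance flags about 1 group in 20. Bmp2 was at 7.61 CPM in anti-Ang2 1, and the next anti-Ang2 library was at 1.86 CPM. Runx2 was at 6.66 CPM in anti-Ang2 3, against 4.70 CPM in the next. Tob1 was at 73.7 CPM in anti-Ang2 2, the lowest, against 96.5 CPM in the next.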

How the results depend on the processing

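Over 20 alternatives Bambi, Bmp6, Acvrl1, Eng, Id1 and Bmp2 kept their direction, with Bambi past the threshold in 12, Acvrl1 and Id1 in 4, Bmp6 in 3 and Eng in 2. Of the 10 genes, those called higher and lower were 0 and 1 by edgeR, 2 and 3 by DESeq2, 1 and 3 by limma voom; the lower count was 0 with the melanoma sum, with the macrophage sum or with the replicate block, and 2 without anti-Ang2 4 and 5. Leaving out 1 library gave 0 to 1 higher and 0 to 2 lower. For the 49 further pathway genes (1 higher, 6 lower), the higher count was 2 with RLE or upper-quartile factors or without anti-Ang2 4 and 5, 4 by DESeq2 or limma voom, 0 with the melanoma sum or without anti-Ang2 1, 2 and 3, and 1 to 2 without 1 library; the lower count was 2 with the melanoma sum or without anti-Ang2 1, 2 and 3, and 3 with the macrophage sum. Over all genes (217 higher, 454 lower) the counts were 780 and 888 by DESeq2, 670 and 780 by limma voom, 24 and 91 with the melanoma sum, 44 and 162 with the macrophage sum, 55 and 178 without anti-Ang2 1, 2 and 3, 531 higher without anti-Ang2 4 and 5, and 82 to 326 higher and 259 to 468 lower without 1 library. The cause of these shifts was not tested, beyond the smaller number of samples in fits that leave libraries out.

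The titles number the libraries 1 to 5 in each group, while a further label numbers them with no number shared between the groups and so gives no pairs. Same-numbered libraries correlated in their deviations at -0.125 to 0.113 and 0 of 5 correlated best with their own number. These values gave no sign of pairing by title number, but a check on 5 pairs cannot exclude it. With the replicate block the counts over all genes were 82 higher and 268 lower. The calls of Bambi (-0.78, adjusted p = 0.0759 by edgeR) and Gata2 (-0.40, 0.0753) were lost under that block.

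Values near 0 changed sign. Leaving out 1 library gave -0.17 to 0.31 for Smad6 (below 0 without IgG 1, -0.07; IgG 3, -0.11; anti-Ang2 1, -0.06; anti-Ang2 4), -0.32 to 0.43 for Bmp4 (-0.08 without IgG 1), -0.19 to 0.011 for Bmpr2 and -0.35 to 0.055 for Smad7. Smad6 was at -0.12 with the melanoma sum. Without anti-Ang2 4 and 5, Smad6 was at -0.16, Bmp4 at -0.15 and Smad7 at 0.16. Bmp4 was at -0.21 by limma voom, and Bmpr2 at 0.20 without anti-Ang2 1, 2 and 3. Id4 was at -0.44 with the melanoma sum and -0.24 without anti-Ang2 1, 2 and 3. The correlation of Id1 with Bmp2 went from -0.028 to 0.019 on log2 FPKM + 0.1. At 41 to 394 counts, Bmp2 had the largest counting error of the 10 genes (7.32% in IgG), still below its CV of 47.0%.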

Other observations

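Of the secreted antagonists in the list, Nog, Chrdl1 and Bmper were among those that failed the filter on low counts in these libraries, and were not tested. Among those tested, Fst, which encodes follistatin, was at 26.1 ± 18.4 CPM with IgG and 43.7 ± 17.5 CPM with anti-Ang2 (log2 fold change 0.74 ± 0.50, adjusted p = 0.490 by edgeR), and Twsg1, a cofactor of chordin, at 401 ± 43.5 and 360.2 ± 28.1 CPM (-0.15 ± 0.09, adjusted p = 0.421 by edgeR).

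The counts of the pseudogene Bambi-ps1 were lower after anti-Ang2 in mean, 0.29 ± 0.09 against 0.07 ± 0.08 CPM, at 0 to 22 counts per library; it failed the filter and was not tested. The ratio of Id1 to Id3 in FPKM was 0.31 ± 0.03 with IgG and 0.23 ± 0.06 with anti-Ang2, with overlap.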
